A study of Homo sapiens with 28 samples.

Results

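The 43 genes described here are interferon-stimulated genes, a list fixed by name and found in full among the 62703 genes of the RNA-seq count tables of 2 colorectal cancer (CRC) cell lines. Each was matched through its GENCODE identifier. Of the 43 genes, 36 passed the filter on low counts in MDST8 and 41 passed it in LoVo. IFI27, IFITM1, IFITM2, OASL, HERC5, XAF1 and EPSTI1 stayed below it in MDST8, and MX2 and XAF1 in LoVo. The filter used the mean over all libraries of a line, so a gene high in a single group could pass through that group.

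Interferons are cytokines that cells release on sensing viral or misplaced nucleic acid. Their receptors act through JAK kinases on the complex ISGF3, of which STAT2 and IRF9 are subunits, and ISGF3 binds a DNA element called the ISRE in the promoters of interferon-stimulated genes. The products block viral entry, translation and replication, and many epithelial and tumour cells keep some of them at a low level without any interferon added.

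RNA-seq covered 24 libraries, 3 for each of 8 groups. In MDST8, a CRC line of the mesenchymal subtype, the groups were WT cells and 5 single-cell-derived TWIST1 knockout clones made with CRISPR-Cas9. The first number of a clone name was read as the number of its guide. By this reading, clones 1.1 and 2.2 each came from a guide of their own, and clones 3.2, 3.5 and 3.6 came from the same guide. In LoVo, a CRC line outside that subtype, 3 libraries were labelled TWIST1 shRNA with the genotype TWIST1 knockdown, and 3 were labelled shRNA control with the genotype wild type. All cells were grown in DMEM with FBS and no interferon treatment is named in the labels. Each clone is 1 clone, and the labels name no WT line that was itself cloned. Nothing in the labels says that the 3 libraries of a group came from separate cultures, so p-values measure the spread between these libraries, which may be technical. TWIST1 ChIP-seq gave 1 peak list for WT cells of each line.

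Total counts ran from 16567606 to 22217009 per library. TWIST1 mRNA was still present in every clone and was called lower only in clone 2.2 (log2 fold change -0.65). It had between 553 and 740 counts in clones 1.1 and 2.2, 635 to 1195 in the others, and 797 to 1034 in WT. These counts do not measure protein, and the paper assessed the MDST8 knockout by Sanger sequencing and Western blot. In LoVo, each library labelled shRNA control had 0 TWIST1 counts, while those labelled TWIST1 shRNA had 73, 89 and 93. The TWIST1 counts therefore run against the LoVo labels, and every LoVo direction below follows the labels. The paper assessed the LoVo knockdown by qRT-PCR and Western blot. Replicate 1 of the libraries labelled TWIST1 shRNA stood apart from the other two, with 10.9% of counts from mitochondrial genes against 6.24% and 5.47%, and 3.49 to 3.96% in the controls. Of 10 colon epithelial markers, including EPCAM and CDH1, 8 were below 1 CPM (counts scaled to library size, on a single TMM scale for all 24 libraries) in every MDST8 group, although the tissue is labelled colon. All 10 were at 1 CPM or more in LoVo, with a summed level of 8378 to 8688 CPM in the controls and 4004 to 4425 CPM in the libraries labelled TWIST1 shRNA. The fibroblast list was below 1 CPM for 5 of 7 markers in the LoVo controls and for 6 of 7 in the other LoVo group, with sums of 5.34 to 7.35 and 56.5 to 83.8 CPM. In MDST8 its sum was 692 to 707 CPM in WT and 530 to 1495 CPM over the clones. Immune markers, which could bring in interferon-stimulated transcripts of their own, summed to 0.185 to 1.66 CPM over all 24 libraries. Their part in the results below was not tested. In bulk libraries, fewer cells with a transcript and less of it per cell cannot be told apart.

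The ISRE core was searched as GAAANNGAA on both strands of RefSeq promoters (GRCh38.p14, 250 bases before to 50 after each start). Of the 43 genes, 34 have an entry in that table. The core was present for 27 of these 34 (79.4%), against 9.86% of the 27305 genes in the table. The GAS core TTCNNNGAA, an element of the response to interferon gamma, was present for 11 of 34 (32.4%), against 9.38% of all genes. The E-box CATCTG was present for 8 of 34 (23.5%), against 17.5% of all genes. A match is only a run of letters, and DHX58, IFITM2, IFIT2, OAS2, IRF7, OASL, USP18, TRIM22 and MX2 have no entry. Sequences of 6 genes are shown with the 200 bases before their start, 5′ to 3′ in the direction of the gene, with ISRE cores in capitals. They were taken from the genes with a core by the number of the 6 comparisons within a line in which they were called, and at equal number by the size of their largest change. RSAD2, IFIH1 and PARP14 were called in all 6, and IFI44L, BST2 and DDX60 in 4, as were other genes with a core whose changes were smaller. RSAD2 (viperin, a radical enzyme that blocks viral replication) lies at chr2:6865685-6865884 on the plus strand, IFIH1 (the RNA sensor MDA5) at chr2:162318685-162318884 on the minus strand and PARP14 (a mono-ADP-ribosyltransferase) at chr3:122680639-122680838 on the plus strand. IFI44L lies at chr1:78620248-78620447 on the plus strand, BST2 (tetherin, which holds budding virions at the cell surface) at chr19:17405631-17405830 on the minus strand and DDX60 (an RNA helicase) at chr4:168318753-168318952 on the minus strand.
RSAD2: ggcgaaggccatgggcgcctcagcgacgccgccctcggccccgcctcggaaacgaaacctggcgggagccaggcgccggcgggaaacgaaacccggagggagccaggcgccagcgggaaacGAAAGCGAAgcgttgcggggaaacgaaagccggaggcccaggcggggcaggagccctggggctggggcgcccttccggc
IFIH1: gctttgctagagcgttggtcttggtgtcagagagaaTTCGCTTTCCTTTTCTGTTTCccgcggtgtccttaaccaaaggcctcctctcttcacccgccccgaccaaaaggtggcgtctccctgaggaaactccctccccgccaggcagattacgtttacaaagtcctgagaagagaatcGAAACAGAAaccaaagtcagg
PARP14: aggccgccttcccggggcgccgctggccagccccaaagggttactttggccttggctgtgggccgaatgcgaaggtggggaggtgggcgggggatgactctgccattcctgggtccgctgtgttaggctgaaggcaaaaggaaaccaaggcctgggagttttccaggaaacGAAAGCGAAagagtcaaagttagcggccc
IFI44L: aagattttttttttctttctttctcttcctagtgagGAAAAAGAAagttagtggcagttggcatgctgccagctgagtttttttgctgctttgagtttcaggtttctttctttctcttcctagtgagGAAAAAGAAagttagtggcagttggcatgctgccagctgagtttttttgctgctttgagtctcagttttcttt
BST2: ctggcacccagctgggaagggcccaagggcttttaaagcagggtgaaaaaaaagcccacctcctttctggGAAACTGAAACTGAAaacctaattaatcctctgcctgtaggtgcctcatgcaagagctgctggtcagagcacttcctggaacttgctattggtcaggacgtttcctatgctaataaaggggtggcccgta
DDX60: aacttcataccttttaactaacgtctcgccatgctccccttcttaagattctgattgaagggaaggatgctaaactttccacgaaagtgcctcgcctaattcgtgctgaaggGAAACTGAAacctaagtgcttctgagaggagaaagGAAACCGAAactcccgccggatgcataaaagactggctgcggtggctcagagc

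The core of RSAD2 began 79 bases before the start and that of PARP14 29 bases before it. IFIH1 held 4 cores, of which 3 overlapped in a run from 164 bases before the start and read on the other strand, and the last began 21 bases before it. In IFI44L, a stretch of 85 bases occurred a second time 91 bases further on, and each copy held a core, at 164 and 73 bases before the start. BST2 held 2 overlapping cores, 130 and 124 bases before the start, and DDX60 held cores at 88 and 53 bases before it.

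In each MDST8 clone, the share of interferon-stimulated genes called higher was above the share of all genes tested, a description without a test of the list. Calls rest on edgeR's quasi-likelihood test, with p-values adjusted by Benjamini-Hochberg over all 13706 genes tested, and need an adjusted p below 0.05 together with a log2 fold change beyond 0.58 in either direction. In clone 1.1, 17 of 36 were called higher (47.2%) and 0 lower, against 12% and 7.49% of all genes tested. In clone 2.2, 14 were called higher (38.9%) and 4 lower (11.1%), against 8.05% and 6.64% of all genes. In clone 3.2, 14 were called higher and 1 lower, against 10.9% and 6.09% of all genes, and in clone 3.5, 16 were called higher and 1 lower, against 11.2% and 7.25%. Clone 3.6 had the most, with 19 called higher (52.8%) and 0 lower, against 15.3% and 11.7% of all genes. The median log2 fold change of the 36 genes was 0.57 in clone 1.1, 0.50 in clone 2.2, 0.40 in clone 3.2, 0.46 in clone 3.5 and 0.62 in clone 3.6. Over all genes tested these medians lay between -0.0144 and 0.0028. The 5 comparisons share the 3 WT libraries and are not independent of each other.

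**Figure D1:**
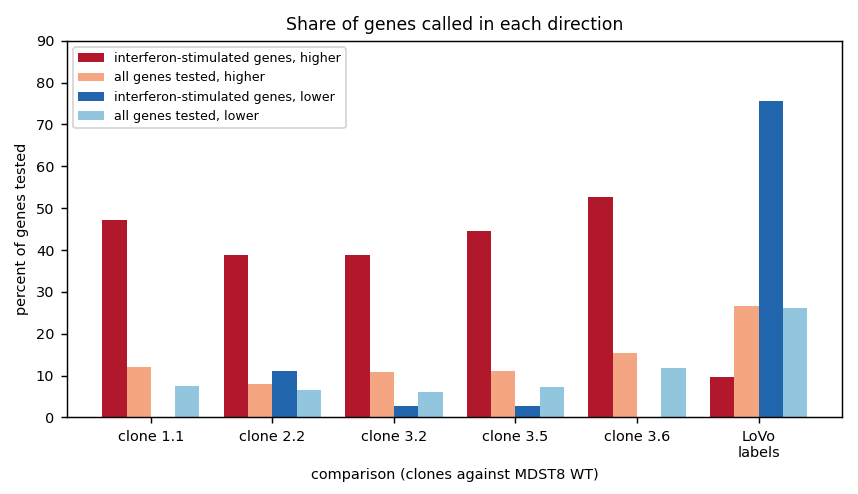
Bars give the percent of genes tested that were called higher or lower, for the interferon-stimulated genes (36 tested in MDST8, 41 in LoVo) and for all genes tested, in each of 6 comparisons. The interferon-stimulated genes were called higher in 38.9 to 52.8% of cases in the 5 clones, and lower in 75.6% of cases in the LoVo libraries labelled TWIST1 shRNA.

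IFIT2, MX2, IRF1, IFIH1, SAMD9L and PARP14 were called higher in all 5 clones, and 0 genes were called lower in all 5. These 6 genes are 16.7% of the 36 tested, against 3.17% of all genes called higher in every clone and 1.06% called lower in every clone. Another 4 genes were called higher in 4 clones, 8 in 3 and 2 in 2, while 10 genes were called higher in 0 clones. The matching shares of all genes tested were not computed, so these numbers describe the list only. IFI6, IFI44, IFIT1, IFIT5, OAS3, IRF9, HERC6, EIF2AK2 and PLSCR1 were called in 0 clones in either direction.

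**Figure D2:**
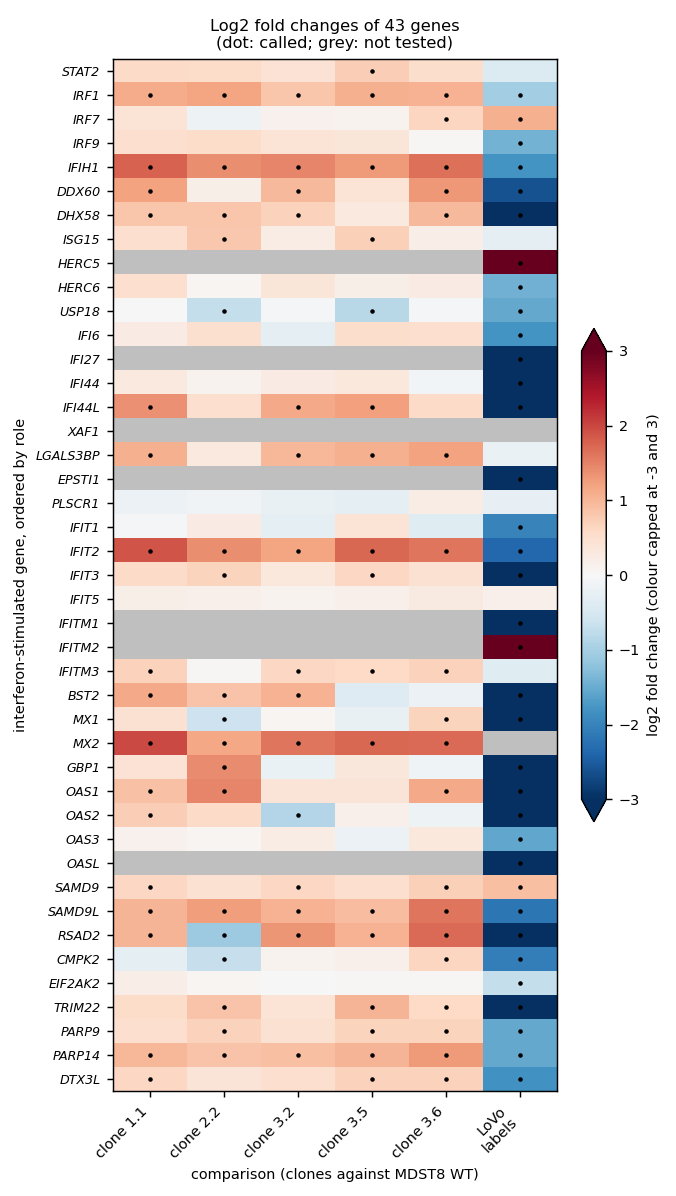
Each row is 1 of the 43 interferon-stimulated genes, ordered by role, and each column a comparison, with the log2 fold change as colour (capped at -3 and 3), a dot where the gene was called and grey where it was not tested. The clone columns are mostly red. Blue cells with a dot are RSAD2, MX1, CMPK2 and USP18 in clone 2.2, OAS2 in clone 3.2 and USP18 in clone 3.5. Other blue cells of the clone columns were not called, and the LoVo column is mostly blue.

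Among the transcription factors of the response, IRF1 rose in all 5 clones, while STAT2, IRF7 and IRF9 were mostly short of the threshold. IRF1, a factor that binds ISRE-like elements and is itself induced by interferons, stood at 29.5, 26.3 and 27.6 CPM in the WT libraries. Clone 1.1 had 56.8, 61.5 and 62.3 CPM, clone 2.2 had 67.6, 64.1 and 58.8, and clone 3.2 had 51.7, 46.8 and 51.7. Clone 3.5 had 59.3, 56.4 and 58.8 CPM, and clone 3.6 had 56.8, 58.9 and 55.8. Every clone library was above every WT library. The log2 fold change lay between 0.84 (standard error, SE, 0.06, adjusted p = 4.23e-14) in clone 3.2 and 1.18 (SE 0.06, adjusted p = 4.55e-18) in clone 2.2. Other annotated genes, among them IRF1-AS1, share 22.9% of IRF1's exon bases, and reads were counted without strand, so reads of either strand there cannot be told apart. The share in other genes was 27.2% for IRF9, 23.1% for IFI6, 31.6% for IFITM1, 16.3% for IFITM3 and 38.3% for XAF1.

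STAT2, a subunit of ISGF3, was also above WT in every clone library, by less. WT held 95.1, 101 and 96.6 CPM, and clone 3.5, the only clone in which STAT2 was called, held 168, 160 and 162 (log2 fold change 0.73, SE 0.04, adjusted p = 1.65e-17). In clones 1.1, 2.2, 3.2 and 3.6 the means were 146 ± 2.06, 144 ± 4.44, 132 ± 1.69 and 142 ± 7.06 CPM (SD, n = 3 each), with log2 fold changes of 0.57, 0.55, 0.43 and 0.53. These adjusted p-values, at most 1.62e-11, passed the threshold of edgeR's test, but the changes were smaller than 0.58. IRF7, which drives the later wave of type I interferon genes, was called in clone 3.6 alone, at 30.8, 26.7 and 29.3 CPM against 18.7, 19.2 and 17.7 in WT (log2 fold change 0.64, SE 0.07). In clone 2.2 it had 16.6, 16.9 and 16.9 CPM, slightly under WT, in clone 3.2 it had 20.5, 21.7 and 19.2, and in clone 3.5 it had 20.5, 19 and 20.4. Clone 1.1 held 26.5, 23.8 and 24.1 CPM, a log2 fold change of 0.41. IRF9, the DNA-binding part of ISGF3, was low, at 1.21, 2.2 and 1.75 CPM in WT, and the clone libraries between 1.19 and 3.23 CPM overlapped it in each clone. Its log2 fold changes ran from 0.03 to 0.55 with SEs of 0.30 to 0.32, so that at these counts none was distinguishable from 0.

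The 3 RNA sensors were raised in most clones. IFIH1 senses long double-stranded RNA and signals through MAVS. It stood at 3.94, 2.76 and 3.36 CPM in WT, at 11.1, 10.9 and 12.2 in clone 1.1, and at 7.83, 9.44 and 9.14 in clone 2.2. The libraries of clone 3.2 held 9.26, 9.03 and 9.54 CPM, those of clone 3.5 held 7.99, 8.25 and 8.23, and those of clone 3.6 held 10.3, 10.4 and 11. No clone library overlapped WT, and the fold change ran from 2.42 in clone 3.5 (log2 1.28, SE 0.13, adjusted p = 1.74e-10) to 3.39 in clone 1.1 (log2 1.76, SE 0.12, adjusted p = 1.27e-14). DHX58 (LGP2, a helper of MDA5 without a signalling domain) was called higher in 4 clones, with log2 fold changes of 0.68 to 0.98, and had a log2 fold change of 0.29 in clone 3.5 with overlapping libraries. DDX60 was called higher in clones 1.1, 3.2 and 3.6, with log2 fold changes of 1.20, 0.97 and 1.31, and had 0.19 in clone 2.2 and 0.40 in clone 3.5.

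The IFIT genes lie side by side on chromosome 10, and only IFIT2 was called in all 5 clones. IFIT proteins bind viral RNA at its 5′ end or bind translation factors. IFIT2 held 2.89, 3.21 and 2.71 CPM in WT. It held 9.94, 10.9 and 12.1 CPM in clone 1.1, 7.01, 8.42 and 7.82 in clone 2.2, and 5.88, 6.01 and 8.07 in clone 3.2. Clone 3.5 held 8.17, 10.9 and 10.1 CPM and clone 3.6 held 9.17, 8.91 and 8.67, so that the lowest clone library was above the highest WT library. The fold change was 3.72 in clone 1.1 (log2 1.90, SE 0.14, adjusted p = 1.41e-13) and 2.26 in clone 3.2 (log2 1.18, SE 0.15, adjusted p = 4.50e-08), the highest and lowest of the 5. IFIT3, whose gene starts 18 kb after the end of IFIT2, was called higher in clones 2.2 and 3.5 only, and its log2 fold changes ran from 0.32 to 0.66. IFIT1, 15.1 kb further on, was called in 0 clones (log2 fold changes from -0.36 to 0.42), and IFIT5, 8.08 kb beyond it, in 0 clones (0.10 to 0.27). Other annotated genes share 13.6% of the exon bases of IFIT2.

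MX2, a GTPase of the nuclear envelope that blocks some retroviruses, was the gene with the largest change in clone 1.1. WT held 7.50, 8.67 and 7.72 CPM and clone 1.1 held 30.8, 33.3 and 31.0, a log2 fold change of 1.99 (SE 0.08, adjusted p = 1.39e-20). Clone 2.2 held 16.4, 19.99 and 17.7 CPM, clone 3.2 held 25.9, 23.5 and 23.6, clone 3.5 held 26.1, 25.1 and 27.7, and clone 3.6 held 24.7, 26.9 and 25.7. Clone 2.2 was the lowest of the 5, with a log2 fold change of 1.17 (SE 0.09), and the others were at 1.6 or more. Its neighbour MX1, 10.6 kb away and the classic marker of type I interferon, was low in this line, at 1.84, 1.95 and 1.75 CPM in WT. GBP1, a GTPase that is mainly induced by interferon gamma, was called in clone 2.2 alone. It held 48.8, 53.2 and 48.6 CPM there against 18.7, 18.5 and 18.5 in WT, a log2 fold change of 1.42 (SE 0.08, adjusted p = 5.08e-17). In clone 1.1 GBP1 held 23.6, 25.1 and 27.6 CPM, in clone 3.2 13.8, 17 and 17.7, in clone 3.5 22.1, 26.1 and 23.2, and in clone 3.6 15.4, 16.7 and 19.1.

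SAMD9 and SAMD9L are adjacent on chromosome 7, 12 kb apart, and encode cytoplasmic proteins that restrict poxviruses and limit translation. SAMD9L held 19.5, 20.1 and 19.5 CPM in WT and was called higher in all 5 clones. Clone 1.1 held 34.5, 40.4 and 45.1 CPM, clone 2.2 held 48.4, 49.1 and 43.7, and clone 3.2 held 39.6, 40.1 and 42.7. Clone 3.5 held 39.9, 38.2 and 35.9 CPM, and clone 3.6 was highest with 60.1, 58.3 and 62.1. The log2 fold changes were between 0.94 (SE 0.07, adjusted p = 5.35e-13) in clone 3.5 and 1.61 (SE 0.07, adjusted p = 2.16e-20) in clone 3.6. SAMD9 was called higher in 3 clones, with log2 fold changes of 0.45 to 0.70 over the 5. PARP14, PARP9 and DTX3L lie together on chromosome 3, and DTX3L is an E3 ligase that forms a complex with PARP9. PARP14 held 28.3, 25.4 and 30.8 CPM in WT, 54.2, 55.4 and 58.9 in clone 1.1, and 51.9, 49.7 and 52.5 in clone 2.2. It held 49.5, 55.3 and 53.2 CPM in clone 3.2, 57.9, 56.6 and 57.0 in clone 3.5, and 65.0, 65.6 and 74.2 in clone 3.6. All 15 clone libraries were above the 3 WT libraries, and the log2 fold changes ran from 0.85 (SE 0.06, adjusted p = 1.31e-13) to 1.27 (SE 0.06, adjusted p = 3.31e-19). PARP9 and DTX3L were each called higher in 3 clones, at log2 fold changes of 0.45 to 0.68 and 0.39 to 0.69.

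**Figure D3:**
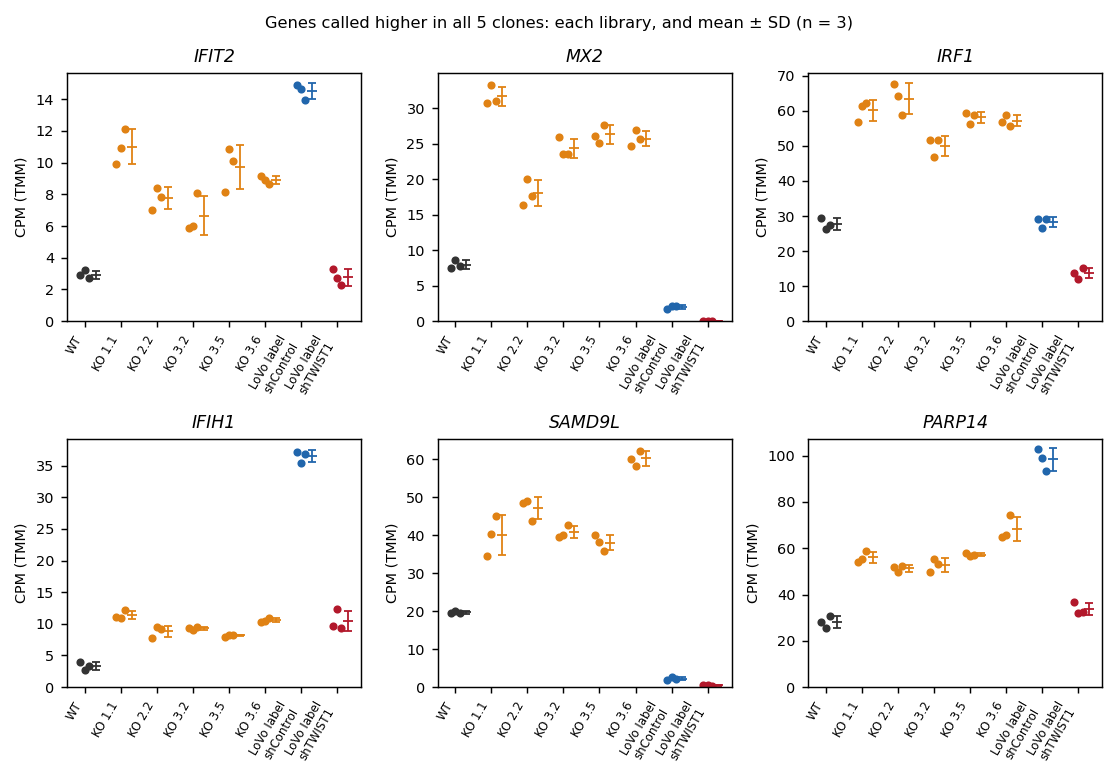
CPM on the TMM scale of the 6 genes called higher in all 5 clones, with each library as a point and the mean ± SD (n = 3) beside it, in all 8 groups. In each panel the 15 clone libraries lie above the 3 WT libraries, and the LoVo libraries labelled TWIST1 shRNA lie below those labelled shRNA control.

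CMPK2, OAS2 and MX1 were each called higher in 1 clone and lower in another. RSAD2 was called higher in 4 clones and lower only in clone 2.2. RSAD2 held 1.36, 1.4 and 1.5 CPM in WT, and only 0.717, 0.629 and 0.683 in clone 2.2, a log2 fold change of -1.08 (SE 0.28, adjusted p = 0.00153). It held 2.31, 2.92 and 3.45 CPM in clone 1.1, 3.65, 3.87 and 3.28 in clone 3.2, 3.09, 3.15 and 2.71 in clone 3.5, and 4.58, 3.69 and 5.72 in clone 3.6. In clone 3.6 the log2 fold change was 1.71 (SE 0.21, adjusted p = 4.87e-09), and clone 2.2 did not overlap any other group. CMPK2, a mitochondrial nucleotide kinase, starts from the opposite strand beside RSAD2, and the genes share 6.20% of the exon bases of RSAD2 and 8% of those of CMPK2. CMPK2 held 12.4, 11.5 and 11.5 CPM in WT, 8.04, 6.44 and 7.72 in clone 2.2 (log2 fold change -0.69, SE 0.11) and 18.2, 18.4 and 19.2 in clone 3.6 (log2 fold change 0.65, SE 0.09). In clone 1.1 CMPK2 held 8.68, 11.1 and 9.68 CPM, in clone 3.2 12.2, 12.4 and 13.7, and in clone 3.5 12.4, 14.1 and 13.3. So CMPK2 was called in 2 clones, where it went the way of RSAD2.

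OAS2 makes 2-5A, the messenger that activates RNase L. It held 11.3, 11.8 and 11.8 CPM in WT, 18.5, 20.5 and 19.5 in clone 1.1 (log2 fold change 0.74, SE 0.09, adjusted p = 6.14e-09) and 6.76, 5.69 and 6.69 in clone 3.2 (log2 fold change -0.88, SE 0.10, adjusted p = 5.30e-09). Clone 2.2 held 17, 17.2 and 18.2 CPM, at a log2 fold change of 0.577 (SE 0.09), just short of the threshold. Clones 3.5 and 3.6, with 11.7, 13.6 and 14 and with 9.93, 9.95 and 11.6 CPM, overlapped WT. The clones 3.2, 3.5 and 3.6 carry the same guide number in their names. OAS1, next to it, was called higher in clones 1.1, 2.2 and 3.6 and was the gene with the largest change in clone 2.2. It held 1.99, 2.25 and 2.61 CPM in WT and 5.27, 7.26 and 6.72 in clone 2.2, a log2 fold change of 1.48 (SE 0.17, adjusted p = 3.10e-09). In clones 1.1, 3.2, 3.5 and 3.6 OAS1 held 3.92 to 4.57, 2.67 to 3.38, 2.76 to 3.15 and 4.79 to 5.27 CPM. OAS3 was called in 0 clones, with log2 fold changes of -0.18 to 0.33. MX1 held 0.973, 0.968 and 1.68 CPM in clone 2.2 and 2.97, 3.30 and 2.54 in clone 3.6, with log2 fold changes of -0.63 (SE 0.26, adjusted p = 0.0386) and 0.66 (SE 0.22, adjusted p = 0.00971). The call in clone 2.2 was lost with DESeq2 (adjusted p = 0.0530), without a filter (0.0950), and without WT replicate A, B or C or clone 2.2 replicate A or B (0.0569 to 0.156). In clone 1.1 MX1 held 2.42, 2.50 and 2.72 CPM, in clone 3.2 2.45, 1.82 and 1.61, and in clone 3.5 1.93, 1.16 and 1.76.

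**Figure D4:**
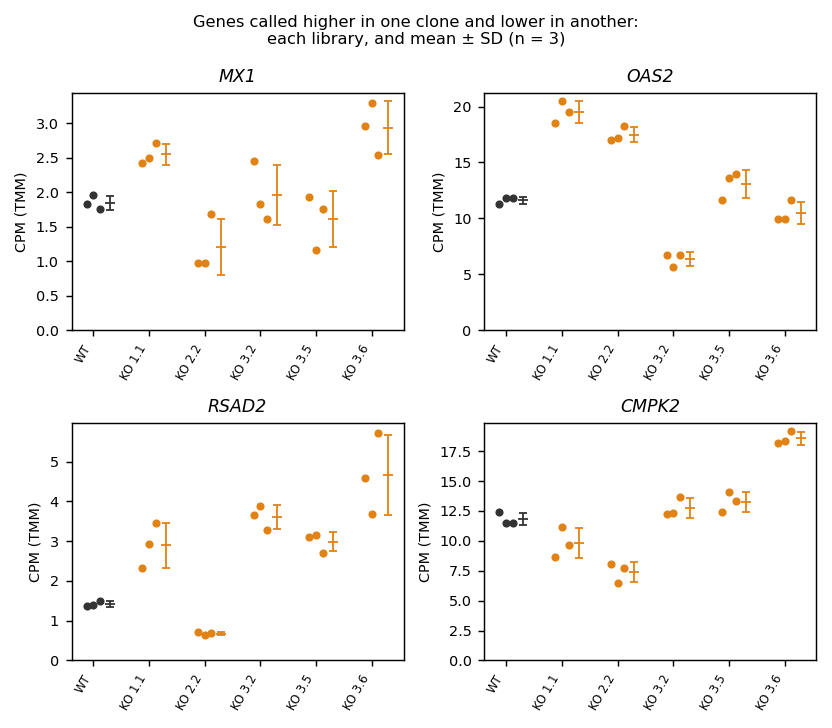
CPM on the TMM scale of MX1, OAS2, RSAD2 and CMPK2 in the 18 MDST8 libraries, with each library as a point and the mean ± SD (n = 3) beside it. RSAD2, CMPK2 and MX1 are lowest in clone 2.2 and highest in clone 3.6, while OAS2 is lowest in clone 3.2 and highest in clone 1.1.

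ISG15, a ubiquitin-like modifier, held 22.4, 21 and 17.9 CPM in WT and was called higher in clone 2.2, at 34.9, 35.4 and 37.2 CPM, and in clone 3.5, at 32.1, 34.4 and 35.3 (log2 fold changes 0.80 and 0.72, SEs 0.07). Clone 1.1 held 29.1, 27.9 and 30.7 CPM, clone 3.2 held 23.6, 24.5 and 23.9, and clone 3.6 held 24.9, 22.7 and 23.1. USP18, which removes ISG15 from proteins and damps signalling at the receptor IFNAR2, was called lower in clones 2.2 and 3.5 (log2 fold changes -0.72 and -0.83, SEs 0.24), the same clones in which ISG15 was called higher. In clone 2.2 this call was lost without WT replicate C (adjusted p = 0.0710). LGALS3BP, a secreted galectin-binding glycoprotein, held 235, 236 and 221 CPM in WT and was called higher in clone 1.1 (494, 487 and 484 CPM), clone 3.2 (456, 444 and 486), clone 3.5 (468, 492 and 503) and clone 3.6 (539, 546 and 514). In clone 2.2 it held 285, 282 and 292 CPM, a log2 fold change of 0.30 (SE 0.04). IFI44L, of unsettled function, held 1.78, 2 and 1.5 CPM in WT and was called higher in clones 1.1 (4.05, 4.96 and 4.76 CPM), 3.2 (3.43, 4.40 and 3.89) and 3.5 (4.55, 4.10 and 3.81). Clones 2.2 and 3.6, with 2.51, 2.37 and 2.73 and with 2.92, 2.51 and 2.4 CPM, were above WT without being called. IFI44, EIF2AK2 (PKR, a kinase that stops translation on double-stranded RNA), PLSCR1 (a phospholipid scramblase) and HERC6 (a relative of HERC5) had log2 fold changes of -0.09 to 0.31, 0.02 to 0.20, -0.27 to 0.22 and 0.06 to 0.51 over the clones. The 7 genes not tested in MDST8 stayed at or below 1.89 CPM in every MDST8 library, and XAF1 at or below 0.345 CPM. IFI6, a mitochondrial protein that counters cell death, held 19.8, 19.99 and 21.3 CPM in WT, and its log2 fold changes ran from -0.27 in clone 3.2 to 0.52 in clone 3.5. TRIM22, an E3 ligase that restricts retroviruses, was called higher in clones 2.2, 3.5 and 3.6, IFITM3, which blocks fusion of virions in endosomes, in clones 1.1, 3.2, 3.5 and 3.6, and BST2 in clones 1.1, 2.2 and 3.2. BST2 stood at 0.840, 1.3 and 1.35 CPM in WT and at most at 2.83 CPM in any clone library.

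The 5 clones also differed from each other. By an F test over the clones, 34 of the 36 genes differed (adjusted p below 0.05), against 81.0% of all genes tested, and IFIT5 and IRF9 did not pass. With a range of the 5 log2 fold changes above 0.58 as a further condition, 21 of 36 passed (58.3%), against 32.0% of all genes. The widest ranges were 2.79 for RSAD2, 1.62 for GBP1, 1.62 for OAS2 and 1.53 for BST2, and the narrowest were 0.17 for IFIT5 and 0.18 for EIF2AK2. Among the genes called in all 5 clones the range was 0.34 for IRF1 and 0.82 for MX2.

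In LoVo, taken by its labels, the difference ran mainly the other way. In the libraries labelled TWIST1 shRNA, 31 of 41 genes were lower than in those labelled shRNA control (75.6%) and 4 were higher (9.76%), against 26.1% lower and 26.6% higher among all 14270 genes tested. Read against the labels, as the TWIST1 counts run, these are 31 genes higher and 4 lower. The median log2 fold change was -1.82, against 0.0097 over all genes. Without replicate 1 of the libraries labelled TWIST1 shRNA, the counts were again 31 lower and 4 higher. The 31 include OAS2, IFI44L, RSAD2, GBP1 and SAMD9L, which were below 1 CPM in every library labelled TWIST1 shRNA. These genes passed the filter through the controls, and no count without them was made. OAS2 held 42.6, 38.5 and 37.9 CPM in the controls and 0.597, 0.547 and 0.810 in the libraries labelled TWIST1 shRNA, a log2 fold change of -5.89 (SE 0.16, adjusted p = 3.57e-15). IFI44L held 4.69, 5.08 and 4.32 CPM in the controls and 0.0543, 0.122 and 0.0579 in the other group, or 244 counts against 4. Its controls were 61.5-fold higher (95% exact interval for counting error 23.7 to 227). RSAD2 fell from 3.36, 3.82 and 4.50 CPM to 0.109, 0.182 and 0.0579, or from 202 counts to 6, so that the controls were 33.9-fold higher (15.3 to 93.5). MX2 held 1.65, 2.15 and 2.19 CPM in the controls and 0 counts in each library labelled TWIST1 shRNA, and was at least 11.5-fold lower there, taken against a floor of 3 counts per library.

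By role, all 4 OAS genes and all 3 RNA sensors were called lower in the LoVo libraries labelled TWIST1 shRNA, as were PARP9, DTX3L and PARP14. BST2 held 167, 171 and 168 CPM in the controls and 8.36, 8.94 and 9.26 in the other group, a log2 fold change of -4.24 (SE 0.07, adjusted p = 3.46e-17). Of the transcription factors, IRF1 held 29.1, 26.7 and 29.2 CPM in the controls and 13.7, 12.2 and 15.1 in the other group (log2 fold change -1.03, SE 0.10, adjusted p = 7.80e-08). IRF9 held 3.04, 2.52 and 3.32 CPM against 2.01, 0.669 and 0.521 (log2 fold change -1.42, SE 0.38). STAT2, at 53.7, 47.1 and 48.0 against 42.3, 34.1 and 33.6 CPM, was not called (log2 fold change -0.42, SE 0.09). IRF7 was higher, at 44.8, 51.9 and 54.6 CPM against 23.3, 22.8 and 27.2 in the controls (log2 fold change 1.06, SE 0.09, adjusted p = 1.92e-08). The other genes that rose were IFITM2, an entry factor block of late endosomes (log2 fold change 3.43, SE 0.13), HERC5, the main ligase that attaches ISG15 (3.00, SE 0.19), and SAMD9 (0.90). IFITM2 rose from 3.30 to 5.13 CPM in the controls to 40.7 to 48.7, while IFITM1, 0.64 kb away, fell from 61.1 to 64.3 CPM to 2.98 to 3.94, and the IFITM genes are close paralogs whose reads counting can split. SAMD9L fell with a log2 fold change of -2.17 (SE 0.34), from 1.84, 2.67 and 2.07 CPM to 0.435, 0.608 and 0.405, next to SAMD9, which rose.

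Among the genes called in all 5 clones, IFIT2 held 14.9, 14.7 and 13.9 CPM in the LoVo controls and 3.31, 2.74 and 2.26 in the libraries labelled TWIST1 shRNA (log2 fold change -2.36, SE 0.16). IFIH1 held 37.2, 35.5 and 36.9 CPM against 9.67, 12.3 and 9.38 (-1.79, SE 0.11). PARP14 held 103, 98.9 and 93.3 CPM against 36.8, 32.0 and 32.4 (-1.53, SE 0.07). In each of these genes the groups did not overlap. ISG15, at 107, 115 and 123 CPM against 89.2, 91.4 and 98.8, was not called, with a log2 fold change of -0.28 (SE 0.07), nor was LGALS3BP, at 511, 520 and 532 against 414, 457 and 472 CPM. IFITM3, PLSCR1, STAT2 and IFIT5 were the other genes tested and not called. XAF1, not tested, had 92 counts in the controls and 8 in the other group, a ratio of 11.6 (95% exact interval for counting error 5.64 to 27.6).

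The LoVo difference was also set against the mean difference of the 5 clones, using one edgeR model of the 24 libraries. It was lower in LoVo for 36 of 41 genes and higher for 2, IFITM2 and IRF7, against 24.6% lower and 26.0% higher among all genes tested. This direction rests on the LoVo labels. With the LoVo difference turned against them, as a setting chosen after seeing the data, 29 of 41 genes were higher in LoVo than the mean clone difference (70.7%) and 4 lower (9.76%), against 24.8% and 25.3% of all genes. The counts by and against the labels both include genes that passed the filter of a single line. IFI27, IFITM1, IFITM2, OASL and EPSTI1 had not passed that of MDST8 and entered through their LoVo level. MX2 had not passed that of LoVo and entered through MDST8. No count without these genes was made. Taken by the labels, the contrast for IRF1 was -2.10 on the log2 scale (SE 0.10, adjusted p = 1.12e-19), and for IFIH1 -3.32 (SE 0.14, adjusted p = 1.56e-20). IFIT5, SAMD9 and PLSCR1 were not called.

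Levels also differed between the control groups of the lines. Per kb of exon, the highest of the 43 genes in MDST8 WT were LGALS3BP with 67.4 CPM per kb, ISG15 with 23.5 and IFI6 with 21.8. In the LoVo controls they were BST2 with 153 CPM per kb, LGALS3BP with 152 and ISG15 with 132. The length covers all annotated exons of a gene, so the order depends on the annotation. IFITM3, with 2844 bp, ranked 4 there at 221 CPM, behind BST2 (1101 bp, 169 CPM) and ISG15 (867 bp, 115 CPM). Between the LoVo controls and MDST8 WT, 28 of 41 genes were called higher in LoVo (68.3%) and 7 lower (17.1%), against 30.6% and 34.0% of all genes tested. IFI27, IFITM1, IFITM2, OASL and EPSTI1 are among those 28 and had not passed the filter of MDST8 alone, so they entered through their LoVo level, and MX2, among those 7, entered through MDST8. Of the 35 genes that passed the filter of each line, 23 were called higher and 6 lower, against 30.1% and 29.5% of all such genes. OASL held 88.1, 91.6 and 91.3 CPM in the LoVo controls and 0.105, 0.301 and 0.150 in MDST8 WT. IFI27 held 81.6, 106 and 105 CPM against 0.472, 0.251 and 0.251, and IFITM1 held 61.1 to 64.3 CPM against 0.251 to 0.451. BST2 and EPSTI1 were likewise high in LoVo alone. SAMD9L, TRIM22, MX2, SAMD9, STAT2, GBP1 and IFIT5 were higher in MDST8 WT, with log2 differences from 3.15 for SAMD9L to 0.79 for IFIT5 in size. IRF1 stood at 28.4 ± 1.42 CPM (SD, n = 3) in the LoVo controls and at 27.8 ± 1.63 in MDST8 WT, and the groups overlapped. Cell line and shRNA vector cannot be told apart in this comparison.

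**Figure D5:**
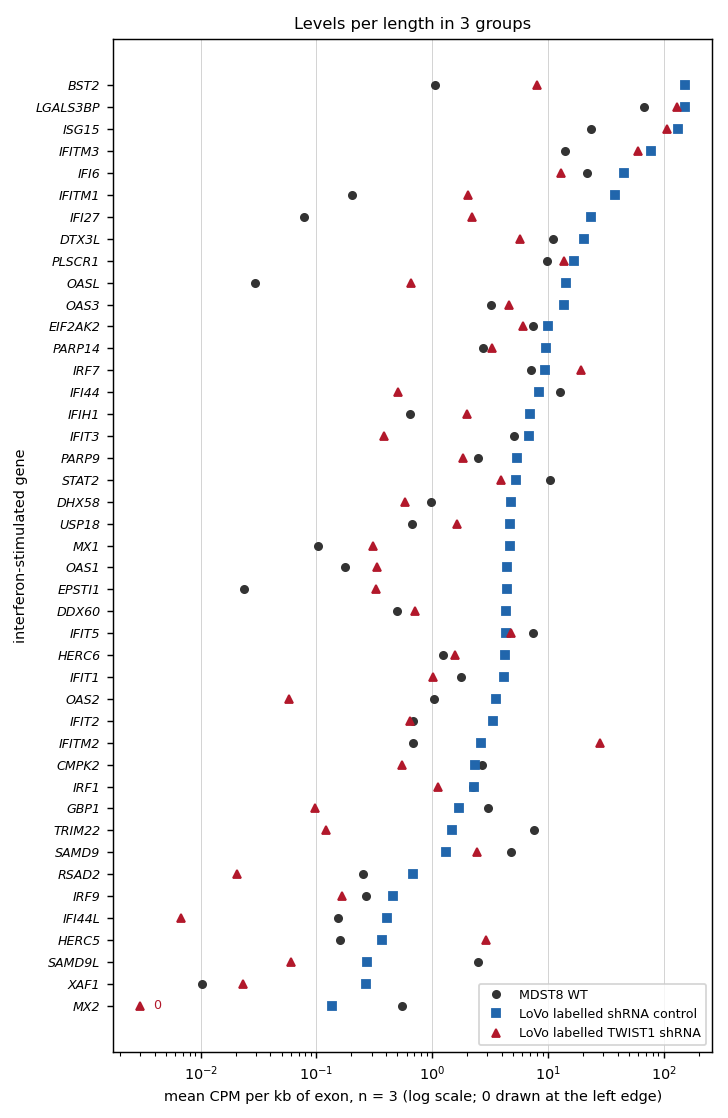
Mean CPM per kb of exon (log scale, n = 3) of the 43 interferon-stimulated genes in MDST8 WT, in LoVo labelled shRNA control and in LoVo labelled TWIST1 shRNA, ordered by the second of these, with MX2 at 0 counts drawn at the left edge. OASL, IFI27, IFITM1, EPSTI1 and BST2 lie far to the left in MDST8 WT, and most genes lie further left in LoVo labelled TWIST1 shRNA than in LoVo labelled shRNA control.

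Of 38 other genes of the pathway, listed by role, 28 passed the filter in MDST8 and 25 in LoVo. Most interferon transcripts were nearly absent. IFNA1 had at most 9 counts in a library, in clone 3.6, with 11 over the 3 libraries of that clone. IFNG, IFNK and IFNL3 had 0 counts in all 24 libraries, IFNB1 had at most 3 counts in a library, and IFNL1 and IFNL2 at most 3. Of the 8 ligands only IFNE, an epithelial type I interferon, was measured in MDST8, at 1.94 ± 0.141 CPM (SD, n = 3) in WT. It was called higher in clones 1.1, 3.2, 3.5 and 3.6, at 3.61, 3.40, 3.76 and 3.11 CPM, with log2 fold changes of 0.88, 0.81, 0.94 and 0.68. The kinases JAK1, JAK2 and TYK2 and the factor STAT3 were called in 0 of the 6 comparisons.

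Among 6 receptors, IFNLR1, the interferon lambda receptor, was called higher in clones 3.5 and 3.6 (log2 fold changes 0.63 and 1.3) and lower in LoVo labelled TWIST1 shRNA (-0.95). IFNGR1, a chain of the interferon gamma receptor, fell there from 226 ± 9.78 to 54.7 ± 2.12 CPM (SD, n = 3; log2 fold change -2.03), and IFNAR2, a chain of the type I receptor, from 4.06 ± 1.05 to 1.96 ± 0.413 CPM (-1.03), and neither was called in a clone. Of 11 genes of nucleic acid sensing, 9 were tested in MDST8. Of these, 3 were called higher in each of clones 1.1, 3.2 and 3.6, 2 in clone 3.5 and 0 in clone 2.2. Among all genes tested, 12%, 10.9%, 15.3%, 11.2% and 8.05% were called higher in clones 1.1, 3.2, 3.6, 3.5 and 2.2. Called lower was 1 of the 9 in each of clones 1.1 and 3.6, against 7.49% and 11.7% of all genes, and 0 in the other clones. STING1, the adaptor for cyclic dinucleotides, held 3.82 ± 0.610 CPM in WT and 15.5 ± 1.53, 5.34 ± 0.0528, 9.41 ± 0.480, 9.41 ± 1.04 and 16.2 ± 0.865 CPM (SD, n = 3) in clones 1.1, 2.2, 3.2, 3.5 and 3.6, and was called in all of these but clone 2.2. IKBKE, a kinase of IRF3 and IRF7, was called higher in the same 4 clones, with log2 fold changes of 0.68 to 0.74, and lower in LoVo labelled TWIST1 shRNA (-1.14). TLR3, the endosomal sensor of double-stranded RNA, was called higher in clones 1.1, 3.2 and 3.6 and lower in LoVo labelled TWIST1 shRNA. CGAS, the DNA sensor that makes the dinucleotide STING1 binds, was called lower in clones 1.1 and 3.6 (log2 fold changes -0.86 and -0.70) and fell from 48.1 ± 0.425 to 2.30 ± 0.904 CPM in LoVo. SOCS1, the feedback inhibitor of JAK kinases, was called higher in clones 1.1, 2.2, 3.5 and 3.6, with log2 fold changes of 0.58 to 1.15. Over the 28 pathway genes tested in MDST8, 5 were called higher in clone 1.1 (17.9%), 1 in clone 2.2 (3.57%), 4 in clone 3.2 (14.3%), 5 in clone 3.5 (17.9%) and 7 in clone 3.6 (25%), against 12%, 8.05%, 10.9%, 11.2% and 15.3% of all genes. Called lower were 1 in clone 1.1, 2 in clone 3.6 and 0 in the others. Of the 25 tested in LoVo, 2 were called higher (8%) and 9 lower (36%), against 26.6% and 26.1% of all genes.

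TWIST1 peaks were close to most interferon-stimulated genes, as they were to most genes. Peaks were listed by the authors at a p-value below 0.05 with no adjustment, 338877 in MDST8 and 333621 in LoVo, each from 1 ChIP library, so no value has replicates. In MDST8, 33 of 43 genes had a peak within 3000 bp of the 5′ end (76.7%, 95% exact interval 61.4 to 88.2), against 76.5% of all genes tested. The 43 include genes that were not tested, and among the 36 that passed the filter in MDST8, 29 had a peak. In LoVo the count was 31 of 43 (72.1%, interval 56.3 to 84.7), against 58.2% of all genes tested, and with a window of 1000 bp it was 14 of 43 (32.6%), against 32.4% of all genes. At a q-value of at most 0.05, 0 of the 43 genes had a peak in MDST8, against 0.642% of all genes tested, and 1 (2.33%) had a peak in LoVo, against 0.350% of all genes. The genes with a peak in both lists numbered 22, and 11 had one in MDST8 alone, 9 in LoVo alone and 1, IFI6, in neither. The LoVo gene at that q-value was PARP14, with 5 peaks near its 5′ end. The strongest had its summit 743 bp after the 5′ end, at chr3:122681397-122681783 (4.13-fold over the local background, with a MACS2 q-value of 0.0264), and it lies after the promoter bases printed above. A weaker LoVo peak at chr3:122680706-122681076 overlaps them. In MDST8, the strongest peak by q-value was at SAMD9L, at chr7:93148832-93149161, with its summit 637 bp before the 5′ end (3.27-fold, q-value 0.274). An MDST8 peak at chr2:6864804-6866190 covers the printed RSAD2 promoter and also lies near the 5′ end of CMPK2 (2.70-fold, q-value 0.820). Of the other genes called in all 5 clones, IFIT2 and IFIH1 had 2 MDST8 peaks each and MX2 had 3, while IRF1 had 0 there and 2 in LoVo. The 5′ end used here was the outermost annotated exon base of a gene, which can lie far from the RefSeq start. For IRF1 it was chr5:132508719, and the RefSeq promoter lies at chr5:132490724-132491023, away from those 2 LoVo peaks. With the 5′ end of every transcript, 40 of 43 genes had a peak in MDST8 (93.0%) and 39 in LoVo (90.7%). Among all genes tested these shares were 89.5% and 80.9%. The genome build of the peaks is not given in the sources used here, and they were read as hg38 because 0 peaks extended beyond the hg38 chromosome lengths.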

How the data were processed

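Groups came from the labels. The authors deposited raw counts of fragments per gene and library, made with Trim Galore 0.6.6, HISAT2 2.1.0, SAMtools 1.6 and featureCounts 2.0.0 on GENCODE genes of hg38, without using strand although the libraries were directional. They also deposited the exon length of each gene in bp, another value, used here for levels per kb. 0 columns of sample values were left unmatched. Symbols and positions were taken from GENCODE.

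A gene entered a fit where RPM + 1, averaged geometrically over that fit's libraries, was at least 2. Counts were TMM-normalized and compared by the quasi-likelihood test of edgeR 4.0.16 (R 4.3.3), with 18 MDST8 libraries in one fit, 6 LoVo libraries in another and all 24 for contrasts between lines. Calls needed an absolute log2 fold change above 0.58, near the study's 1.5-fold, and an adjusted p below 0.05. CPM values are on 1 TMM scale over 24 libraries, so they can differ slightly from each line's fit. For single genes, exact two-sided permutation tests of 3 against 3 libraries on log2(CPM + 0.5) cannot give a p below 0.10, the value for every pair of groups that did not overlap. The scripts were first tested on simulated data. The study's own test, limma on log2 counts, and DESeq2 1.42.0, limma 3.58.1 with voom, other factors, other filters, fits of fewer groups, a replicate block and fits without each library were the alternatives.

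For each peak the authors deposited a score, a fold enrichment (a ratio), and p and q-values as -log10, from Bowtie2 2.4.5 and MACS2 2.2.7.1. A gene had a peak when one overlapped the 3000 bp on either side of its 5′ end, the outermost exon base of any annotated transcript. Whether the input libraries served as control is not given in the sources used here. Intervals for shares and floors of 3 counts cover counting error only.

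The 43 genes, the lists and the tests were chosen with earlier results of these data known. Genes chosen for values of single libraries, or for group means or ranges in their place, were of 4 kinds. They were IRF1, IRF7, IRF9 and STAT2, genes called alike in all 5 clones or in opposite directions, the 3 largest changes of each comparison and the 3 highest genes per length in each line. Not every group is given for each of them. Promoters are shown for up to 6 genes with an ISRE core, most often called first. Of the pathway list, genes called in 3 or more comparisons within a line are named, with some others chosen after their values were seen, and 1 item is not reported here.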

Additional observations from a re-analysis of the deposited data

Results flagged for a closer look

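The clones, each compared with the same WT libraries, differed from each other for 34 of the 36 genes tested, by an F test, against 81.0% of all genes. OAS2, CMPK2 and MX1 were each called higher in 1 clone and lower in another, and RSAD2 higher in 4 clones and lower in 1. The gap between the highest and lowest log2 fold change was 2.79 for RSAD2, 1.62 for OAS2, 1.34 for CMPK2 and 1.29 for MX1. For RSAD2, CMPK2 and MX1 the lowest value was in clone 2.2 and the highest in clone 3.6, and for OAS2 they were in clones 3.2 and 1.1. The lower call of MX1 in clone 2.2 was lost with DESeq2, without a filter and without any 1 of 5 libraries.

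The difference between the LoVo groups also differed from the mean difference of the clones for 38 of 41 genes, 36 lower and 2 higher, against 24.6% and 26.0% of all genes. Among these, IFI27, IFITM1, IFITM2, OASL and EPSTI1 had passed the filter of LoVo but not that of MDST8, and MX2 that of MDST8 but not that of LoVo. All but MX2 of the 6 genes that rose in all 5 clones were called lower in the LoVo libraries labelled TWIST1 shRNA. MX2 was not tested within LoVo and had 0 counts in each of those libraries. The contrast between the lines was -3.94 for IFIT2, -2.10 for IRF1, -3.32 for IFIH1, -3.37 for SAMD9L and -2.56 for PARP14 on the log2 scale. For MX2 it was -9.92, a size that rests on those 0 counts. The TWIST1 counts run against the LoVo labels, and cell line, method of TWIST1 loss and clone cannot be told apart. No group had 4 or more libraries, so single libraries were not tested as outliers.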

How the results depend on the processing

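Over the 5 clones, LoVo and the comparison of the lines, 0 of 3758 refits of a single gene turned a call around, 21 lost one and 37 gained one. Leaving out a single library gave 17 to 19 interferon-stimulated genes called in clone 1.1, 17 to 20 in clone 2.2, 14 to 15 in clone 3.2, 16 to 17 in clone 3.5, 19 to 20 in clone 3.6, 33 to 35 in LoVo, 33 to 36 between the lines, 37 to 39 in the contrast of the lines, 6 to 7 in all 5 clones and 33 to 34 in the F test. Replicate letters paired the MDST8 samples weakly at most: same-letter correlations of deviations from the group means ran from -0.105 to 0.12. In clone 3.6, libraries A, B and C each correlated best with the WT library of their own letter, at 0.12, 0.025 and 0.092. Library C of clone 1.1 did so at 0.049, and no other clone library did. With a replicate block the counts stayed at 17, 18, 15, 17 and 19 in the 5 clones, 6 in all 5 and 34 in the F test. No paired analysis was possible in LoVo because its groups share no replicate labels. The F test with a range above 0.58, chosen after seeing the data, gave 21 genes in place of 34. Genes with a peak near the 5′ end numbered 14 in MDST8 and 9 in LoVo at p of at most 0.001. They numbered 0 and 1 at q of at most 0.05, and 14 in LoVo within 1000 bp, since fewer peaks qualify. Against 32.6% and 20.9% of the 43 genes at that p, 28.2% and 18.8% of all genes had one. With the LoVo direction turned against the labels, chosen after seeing the data, the contrast of the lines gave 33 genes, 29 higher and 4 lower, in place of 2 higher and 36 lower. Depth limits IRF9, MX1 and the genes near 1 CPM.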
